A study of Homo sapiens with 6 samples.

Results

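Each siRNA group of a study on PC3 cells was measured on an array numbered 1 and an array numbered 2, and the arrays numbered 1 were compared with those numbered 2 within each group. All 6 of the 6 arrays of the series entered the comparison, as 3 pairs. PC3 is an established human prostate cancer cell line with an epithelial character. Total RNA was taken 72 h after transfection, with DharmaFECT reagents, of scrambled siRNA, of a pool of siRNAs against VEGF-C or of a pool of siRNAs against NRP-2. VEGF-C is a growth factor of lymphatic vessels, and NRP-2 (neuropilin-2) is a co-receptor for it. The NRP-2 pool came from Santa Cruz Biotechnology and the VEGF-C pool from Dharmacon, so target and supplier differ together between those groups, while within a pair the siRNA was the same. All cells grew in RPMI medium with 10% fetal bovine serum, and 6 ug of total RNA per array was labelled with biotin and hybridised to Affymetrix HG-U133 Plus 2.0 arrays. What the labels give is a number in each title. They do not say that equal numbers share a day, a culture or a batch, nor that the arrays of a group came from separate cultures, so every p-value below rests on the spread among these 6 arrays, part or all of which may be technical. Each target was silenced with a single pool, and whether the scrambled siRNA is a pool is not given.

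A dividing cell copies its DNA in S phase, after origins have been licensed by the MCM helicase and its loaders, and separates the copies in mitosis with kinetochores, a spindle and the anaphase-promoting complex. The transcripts for these steps are low in resting cells and rise in waves. Genes of the G1 to S transition are classically bound by E2F factors. Genes of G2 and mitosis often carry a cell cycle genes homology region (CHR), read by the DREAM and MuvB complexes, and nearby CCAAT boxes bound by NF-Y. In a mixed culture the level of such a transcript follows the share of cells in that phase, and in bulk RNA fewer cycling cells and less transcript per cycling cell cannot be told apart.

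Values are deposited log2 levels. A difference is the level on array 1 minus that on array 2, so a positive value is higher on the array numbered 1, and a difference of 1.00 is 2-fold. Of 11131 genes tested, each represented by its brightest probe set, 0 (0.0%) passed a Benjamini-Hochberg adjusted p of 0.05 in limma's paired fit over the 3 pairs, and the lowest adjusted p was 0.123. Without adjustment, limma's p was under 0.05 for 1134 genes (10.2%), of which 614 stood higher (5.52%) and 520 lower (4.67%) on array 1. The difference had the same sign in all 3 pairs for 3575 genes (32.1%), of which 1748 (15.7%) were higher and 1827 (16.4%) lower on array 1. A single gene cannot be judged by the pairs alone, since an exact two-sided sign-flip test of 3 pairs reaches no p below 0.25. The genes below are therefore described by their value on every array and none is said to have risen or fallen. For some genes all arrays numbered 1 are said to lie above or below all those numbered 2. How common this was over all genes tested was not counted. Those genes were named for their pair differences or p, which favours such separation.

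The genes that stood 2-fold or more higher on array 1 in each of the 3 pairs were mostly genes of cell division. There were 18 such genes (0.162% of those tested), and 13 of them belong to 6 lists of replication, nucleotide, recombination and mitosis genes, called proliferation lists here. They are SPC24, NCAPH, ASF1B, EXO1, MKI67, TYMS, PBK, KNL1, NCAPG, CCNA2, CDC45, DEPDC1 and RAD51AP1. The other 5 were NEIL3, SHCBP1, DIAPH3, CLDN11 and DLEU2. Just inside the 2-fold limit were CDC45 and RAD51AP1, whose smallest pair differences were 1.007 and 1.005, and just outside it were RRM2 and SKA3 at 0.989. The 11 genes at least 2-fold lower on array 1 in each pair (0.0988%) hold no member of those lists. They are TFF1, TFF2, DHRS9, CAPN8, CDH26, VSIG1, PABPC1L, CSAD, L3MBTL1, KLF3-AS1 and ADCY10P1, with CSAD (1.02) and L3MBTL1 (1.007) just inside and LYZ (0.901) and PABPN1 (0.871) just outside. L3MBTL1 and PABPN1 passed the filter on low values only through the arrays numbered 2, with means of log2 3.49 and 3.73 on the arrays numbered 1 and 4.90 and 4.95 on those numbered 2, so a lower value on array 1 had to follow for them.

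The promoters of 8 genes higher on array 1 are shown as examples of the letters that the counts further on refer to, and were chosen for holding them after the values were seen. Each line below gives the 100 bases before the transcription start, 5′ to 3′ on the gene's strand, from RefSeq (GRCh38.p14). Capitals mark a match to the CHR core TTTGAA, to CCAAT or to an E2F core (TTTCCCGC, TTTCGCGC, TTTGCCGC or TTTGGCGC), on either strand, so that on the other strand the CHR core appears as TTCAAA and the CCAAT box as ATTGG. The first 5 genes act in mitosis or, for ASF1B, in chromatin assembly, and the last 3 act in S phase. In MKI67 the second TTTGAA overlaps the ATTGG that follows it.
MKI67: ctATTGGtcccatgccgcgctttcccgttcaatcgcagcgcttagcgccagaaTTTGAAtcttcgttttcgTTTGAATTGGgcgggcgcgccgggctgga
KIF11: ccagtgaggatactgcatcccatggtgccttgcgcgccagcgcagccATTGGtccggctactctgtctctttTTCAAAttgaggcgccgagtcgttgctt
DEPDC1: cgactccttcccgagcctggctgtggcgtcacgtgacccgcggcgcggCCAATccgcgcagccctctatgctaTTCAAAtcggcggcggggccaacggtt
BUB1B: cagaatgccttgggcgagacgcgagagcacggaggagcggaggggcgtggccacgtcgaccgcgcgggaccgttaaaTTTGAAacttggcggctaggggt
ASF1B: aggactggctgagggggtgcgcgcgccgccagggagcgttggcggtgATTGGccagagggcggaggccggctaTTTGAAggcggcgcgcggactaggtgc
TYMS: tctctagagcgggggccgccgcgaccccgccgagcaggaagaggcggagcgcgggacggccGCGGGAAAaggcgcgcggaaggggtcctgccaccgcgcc
GINS2: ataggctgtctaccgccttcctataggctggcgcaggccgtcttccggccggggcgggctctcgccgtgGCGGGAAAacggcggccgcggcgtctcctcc
CDT1: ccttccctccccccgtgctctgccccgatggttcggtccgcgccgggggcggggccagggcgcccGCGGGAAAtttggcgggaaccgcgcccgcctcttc

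These stretches lie at chr10:128126424-128126523 (minus strand) for MKI67, chr10:92593030-92593129 (plus) for KIF11, chr1:68497083-68497182 (minus) for DEPDC1 and chr15:40160969-40161068 (plus) for BUB1B. Those of the other genes are chr19:14136590-14136689 (minus) for ASF1B, chr18:657553-657652 (plus) for TYMS, chr16:85688955-85689054 (minus) for GINS2 and chr16:88803689-88803788 (plus) for CDT1. The CHR match begins 28 bases before the start in KIF11, 27 in DEPDC1 and in ASF1B, and 23 in BUB1B. Other genes named here lack the letters in the same 100 bases. No exact E2F core was present there in CDC6, PRIM1, DBF4 or MCM3, and no exact CHR core in MAD2L1, SPC24 or CCNA2. Variants of these cores were not searched for, so sites that differ by a letter may be present in these promoters.

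Over the 300-base windows of RefSeq, which run from 250 bases before to 50 after each start, a CHR core was present in 15.2% of all 35116 windows and in 14.2% of the 9189 tested genes with a window. Among the proliferation lists it was present in 31 of 40 spindle and cytokinesis genes (77.5%), 16 of 26 mitotic kinase, cyclin and APC/C genes (61.5%) and 14 of 30 kinetochore genes (46.7%), but in 2 of 38 replication genes (5.26%). The E2F cores went the other way, with 19 of 38 replication genes and 4 of 40 spindle genes (10.0%), against 6.71% of tested genes and 3.31% of all windows. CCAAT was common throughout, in 43.8% of tested genes and 72.5% of spindle genes. Over all tested genes, the 554 with both a CHR core and CCAAT had a median difference of +0.04 in the scrambled pair, +0.06 in the VEGF-C pair and +0.06 in the NRP-2 pair, and 27.4% of them were higher in all 3 pairs, beside 15.7% of all genes tested. Outside the proliferation lists, 20.9% of 506 such genes were higher and 15.4% lower in all 3 pairs, with pair medians of +0.01, +0.04 and +0.03. Of all 10916 genes outside those lists, 14.4% were higher and 16.7% lower in all 3 pairs. A match describes the letters of these windows, and no binding was measured here.

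Of the targeted genes, VEGFC stood at 11.81 and 11.80 (scrambled), 8.46 and 7.27 (VEGF-C) and 11.99 and 11.67 (NRP-2); under its own siRNA it was 1.19 higher on array 1. NRP2 stood at 4.77 and 4.92, 5.51 and 6.01, and 3.41 and 2.81, low on every array. Each was lowest on the arrays of its own siRNA. RNA quality did not follow the array number in a common direction. The ACTB control probe sets at the 3′ end exceeded those at the 5′ end by 3.11 and 2.05 on scrambled arrays 1 and 2, 2.11 and 2.28 on the VEGF-C arrays, and 2.18 and 2.76 on the NRP-2 arrays, so the pairs differ in sign. The same measure for GAPDH lay between -0.09 and -0.001 on all 6 arrays. The array medians spanned 0.07. The list called PC3 epithelial markers holds KRT8, KRT18, KRT19, EPCAM, CDH1, CD44 and VIM, of which CD44 and VIM are not particular to epithelium. All 7 were measured, with summed levels of log2 16.64 to 16.83 on arrays numbered 1 and 16.66 to 16.88 on those numbered 2. Of markers of other cell types, 0 of 8 leukocyte, 2 of 8 endothelial (PECAM1 and KDR) and 3 of 10 fibroblast genes (COL3A1, COL1A1 and ACTA2) had a mean of at least log2 4. PECAM1 was at -1.44, -0.18 and -1.64 and KDR at -0.04, -0.10 and -0.01. COL3A1 was at -0.52, -1.24 and -0.80, COL1A1 at -0.03, -0.15 and -0.70, and ACTA2 at -0.44, -0.04 and +0.13. A second COL1A1 probe set past the filter had a mean difference of +0.14, so the fibroblast markers did not share a direction. The summed endothelial level was log2 9.33 to 9.54 on arrays numbered 1 and 9.50 to 10.98 on those numbered 2, that of fibroblast markers 10.08 to 10.95 and 10.56 to 11.05, and the leukocyte markers stayed near the floor. The part of these markers and of RNA quality in the differences below was not tested.

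Genes of DNA replication were mostly higher on array 1, and 12 of 45 had mixed signs across the pairs. Of 45 measured genes for origin licensing and replication forks, 33 (73.3%) were higher on array 1 in all 3 pairs. None was lower in all 3. Of all genes tested, 15.7% were higher and 16.4% lower in all 3 pairs. An unadjusted limma p under 0.05 was reached by 29, all higher, beside 5.52% of all genes on that side. The list's median difference was +0.23 in the scrambled pair, +0.71 in the VEGF-C pair and +1.02 in the NRP-2 pair, where the medians of all genes were -0.001, -0.01 and 0.0004. ASF1B, a histone chaperone that loads histones H3 and H4 behind the fork, had the smallest p of all genes. It stood at log2 7.51 and 5.88 on scrambled arrays 1 and 2, at 9.01 and 7.24 on the VEGF-C arrays, and at 9.37 and 7.36 on the NRP-2 arrays. All arrays numbered 1 thus lay above all arrays numbered 2. Its mean difference was +1.80 (SE 0.13, 3 pairs, 3.48-fold, limma's adjusted p = 0.123).

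The licensing and firing factors followed with larger gaps between the pairs. CDC45, a part of the replicative helicase, stood at 5.69 and 4.69 (scrambled), 6.81 and 5.70 (VEGF-C), and 7.41 and 5.65 (NRP-2), a difference of +1.29 (SE 0.18). CDC6, which loads the MCM helicase, was at 7.50 and 6.88, 9.33 and 8.45, and 8.88 and 7.73 in the same order (+0.88, SE 0.14). For CDC45 the scrambled array 1 lay level with the second arrays of the other groups, and for CDC6 it lay below both of them, so the arrays numbered 1 and 2 overlap once siRNA groups are mixed. GINS2, a subunit of the helicase, differed by +0.31 in the scrambled pair, +1.67 in the VEGF-C pair and +2.22 in the NRP-2 pair. CDT1, which acts with CDC6, differed by +0.37, +1.06 and +1.77. PRIM1, the catalytic primase subunit, differed by +0.89, +1.21 and +1.83, while DBF4, the activator of the CDC7 kinase, was even across pairs at +0.83, +0.91 and +0.98. The clamp PCNA was at -0.01, +0.50 and +0.95 and the helicase subunit MCM3 at -0.34, +0.95 and +0.84. Of the 45 replication genes, 11 were lower on array 1 in the scrambled pair, 1 in the VEGF-C pair and 0 in the NRP-2 pair.

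Nucleotide supply was mixed, with the S phase enzymes apart from the rest. Of 26 measured genes 10 were higher (38.5%) and 1 was lower (3.85%) in all 3 pairs, beside 15.7% and 16.4% of all genes tested. The list medians were +0.13, +0.17 and +0.30 in the scrambled, VEGF-C and NRP-2 pairs. TYMS, thymidylate synthase, stood at 11.95 and 10.66 on the scrambled arrays, 12.52 and 11.18 on the VEGF-C arrays, and 13.63 and 11.70 on the NRP-2 arrays (+1.52, SE 0.17). Each array 1 lay above each array 2. RRM2, the S phase subunit of ribonucleotide reductase, differed by +1.61, +0.99 and +1.71, and TK1, thymidine kinase, by +1.66, +0.99 and +2.19. RRM2B, the reductase subunit used outside S phase, was the gene lower in all 3 pairs, at -0.14, -0.62 and -0.39. The enzymes of purine synthesis GART (+0.09), PAICS (+0.04) and ATIC (+0.06) lay near 0.

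Genes of mitosis were mostly higher on array 1 in every pair. All 44 measured genes for the spindle, kinesins, condensins and cytokinesis were higher in all 3 pairs, each with an unadjusted limma p under 0.05. The same sign held for 31 of 33 mitotic kinase, cyclin and APC/C genes (30 with p under 0.05). It also held for 35 of 38 centromere and kinetochore genes (34 with p under 0.05). No gene of these lists was lower in all 3 pairs. Of all genes tested, 15.7% were higher in all 3 pairs, and 5.52% were higher with an unadjusted limma p under 0.05. The spindle median was +1.66 in the scrambled pair, +0.71 in the VEGF-C pair and +0.92 in the NRP-2 pair. The mitotic kinase list was at +1.51, +0.55 and +1.02, and the kinetochore list at +1.09, +0.64 and +1.05. The 3 mitosis lists thus had their largest median in the scrambled pair, where the replication list had its smallest. With 1 pair per group this difference between pairs was not tested.

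**Figure D1:**
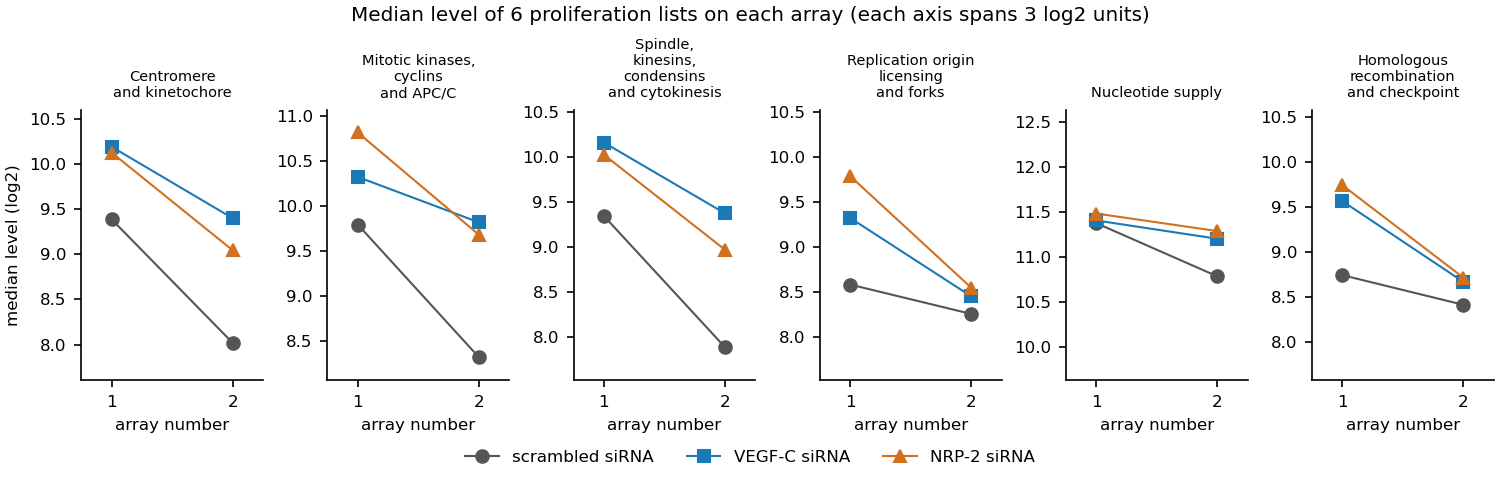
Median log2 level of the genes of 6 proliferation lists on each array, with array number on the x axis and a line joining the arrays of each siRNA group. Each line falls from array 1 to array 2. For the spindle list the scrambled arrays lie lowest at each number and fall most steeply, whereas the scrambled line of the replication list is the flattest of its panel.

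MKI67, the antigen of the Ki-67 proliferation stain, shows how number and siRNA combine. It stood at log2 8.38 and 6.33 on the scrambled arrays, 9.94 and 8.79 on the VEGF-C arrays, and 9.83 and 8.42 on the NRP-2 arrays. Array 1 was higher in each pair, but scrambled array 1 lay below both second arrays of the siRNA groups against VEGF-C and NRP-2. The mean difference was +1.53 (SE 0.20, 2.89-fold, limma's adjusted p = 0.123). Of its 4 probe sets 3 were higher in all 3 pairs, and the dimmest was at -0.02 in the NRP-2 pair. CCNA2, cyclin A2, which acts from S phase into mitosis, was at 9.79 and 8.09, 10.97 and 9.82, and 10.87 and 9.72 in the same order (+1.33, SE 0.16). Its second probe set gave +1.87. In CCNA2 too, scrambled array 1 lay at the level of the second arrays of the other groups.

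Kinetochore and checkpoint genes gave values of the same size. SPC24, a subunit of the NDC80 complex that binds microtubules, was at 5.71 and 3.87 (scrambled), 6.81 and 5.22 (VEGF-C), and 8.08 and 5.25 (NRP-2). Its difference of +2.08 (SE 0.26, 4.24-fold) was the largest of all genes tested, and its arrays numbered 1 all lay above those numbered 2. BUB1B, a kinase-like protein of the spindle checkpoint, differed by +1.38, +0.91 and +1.23, and MAD2L1, the checkpoint protein that restrains CDC20, by +1.24, +0.87 and +0.99. KNL1, the scaffold that recruits BUB1, differed by +1.95, +1.22 and +1.08. The centromere proteins CENPH (+1.16, SE 0.14), CENPM (+1.34, SE 0.17) and CENPO (+1.02, SE 0.13) were alike in size.

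Among the kinases and motors, PBK, a mitotic kinase, was at 10.91 and 9.26, 11.61 and 10.36, and 11.92 and 10.40 on the scrambled, VEGF-C and NRP-2 arrays (+1.47, SE 0.13). PLK4, the kinase that starts centriole duplication, differed by +1.04, +0.92 and +1.12, so closely that its SE was 0.11. KIF11, the motor that separates spindle poles, differed by +1.42, +1.29 and +0.95, and KIF15, which backs it up, by +1.58, +0.92 and +1.41. The condensin subunits NCAPG (+1.73, +1.02, +1.40) and NCAPH (+2.19, +1.03, +2.27), which compact chromosomes, had their smallest difference in the VEGF-C pair. CDC25C, the phosphatase that activates CDK1, was at +1.72, +0.84 and +1.04. DEPDC1 was higher in all 3 pairs on each of its 4 probe sets (+1.22 to +1.48).

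**Figure D2:**
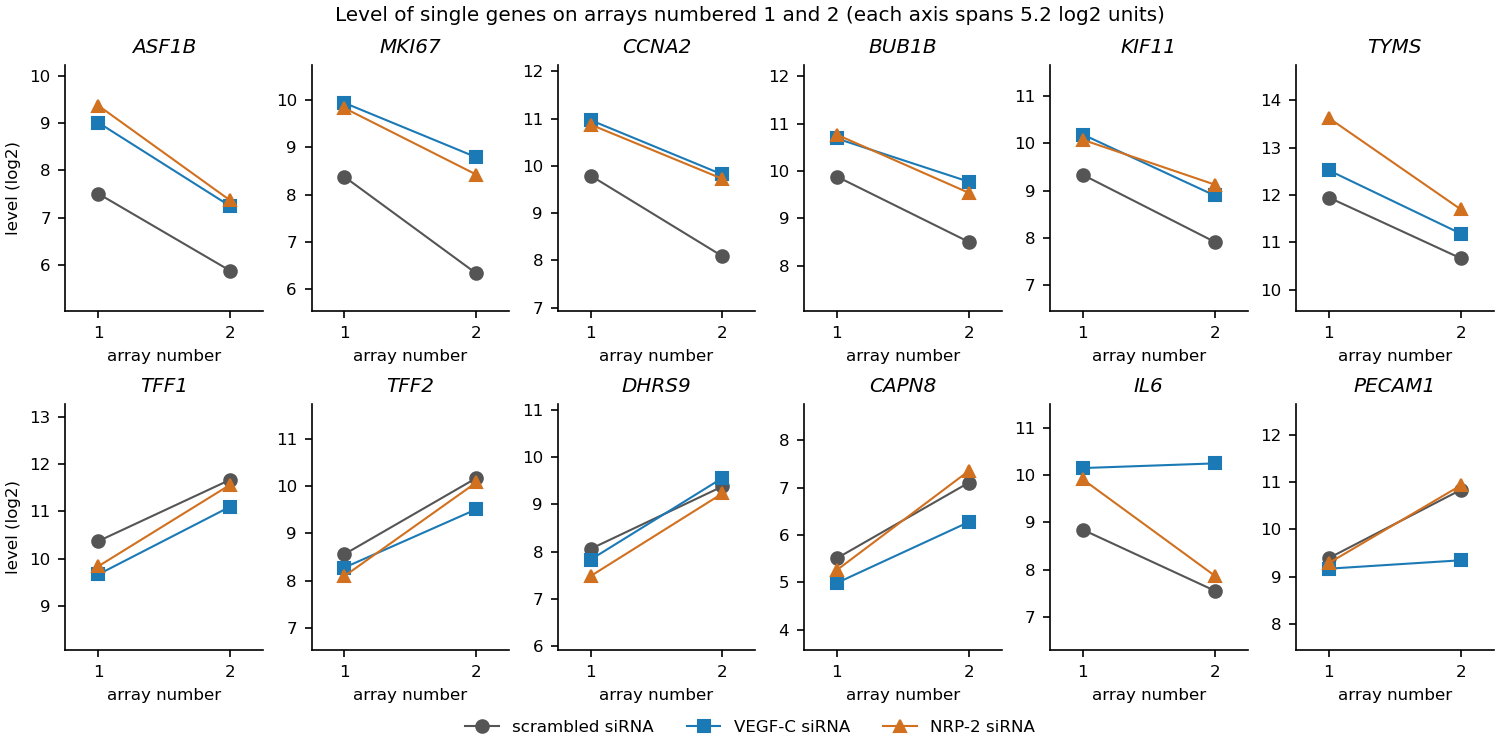
Log2 levels of 12 genes on arrays 1 and 2, joined within each siRNA group, with every y axis spanning the same range. In the upper panels (division genes) and for TFF1, TFF2, DHRS9 and CAPN8 the 3 lines run in the same direction, whereas for IL6 and PECAM1 the VEGF-C line is flat (-0.10 and -0.18) beside the other pairs.

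Genes of homologous recombination and checkpoints followed the replication pattern. Of 29 measured, 22 were higher in all 3 pairs (75.9%) and none was lower in all 3, beside 15.7% and 16.4% of all genes tested. The list medians were +0.29, +0.64 and +0.96 in the scrambled, VEGF-C and NRP-2 pairs. EXO1, an exonuclease that resects DNA ends, was at 6.66 and 5.36, 8.05 and 6.60, and 8.92 and 6.37 (+1.77, SE 0.27). BRCA1, which loads the recombinase, differed by +0.87, +1.32 and +1.12, RAD51AP1, which stimulates strand invasion, by +1.39, +1.01 and +1.22, and RAD54L, a translocase of the same step, by +0.83, +1.20 and +1.39. UBE2T and FANCI, of the Fanconi pathway for crosslinks, were at +1.21 (SE 0.18) and +0.98 (SE 0.16). NEIL3, a glycosylase acting on replicating DNA that is in none of the 6 lists, was at +2.09, +1.17 and +2.30.

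Together the 6 proliferation lists held 215 measured genes, and 175 of them (81.4%) were higher on array 1 in all 3 pairs, against 1 lower. An unadjusted limma p under 0.05 was reached by 163 on the higher side, among the 614 such genes of the whole set, and by 1 on the lower side. Their medians were +0.72 in the scrambled pair, +0.62 in the VEGF-C pair and +0.96 in the NRP-2 pair. Without them, 1573 of the remaining 10916 genes were higher (14.4%) and 1826 lower (16.7%) in all 3 pairs.

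The regulators of cell cycle entry had smaller median differences. Among 22 E2F, pocket protein and G1 cyclin genes 9 were higher (40.9%) and 1 lower (4.55%) in all 3 pairs. Of all genes tested, 15.7% were higher and 16.4% lower in all 3 pairs. The list medians were +0.11, +0.18 and +0.25. E2F8, a repressor made in S phase, differed by +1.05, +0.82 and +0.94, and E2F7, of the same kind, by +0.38, +0.38 and +0.71. CCNE1, cyclin E1, was at +0.68, +0.40 and +1.49, while CCNE2 was at -0.05, +1.70 and +1.24. MYC was at +0.03, +0.51 and +0.45 (limma's unadjusted p = 0.0635). Of 36 CDK inhibitor and growth arrest genes 4 were higher (11.1%) and 8 lower (22.2%) in all 3 pairs, beside 15.7% and 16.4% of all genes tested. CDKN2D, the p19 inhibitor of CDK4 and CDK6, was among the higher ones (+1.01, +0.65, +0.77), and MXI1, an antagonist of MYC, among the lower ones (-0.56, -0.98, -0.66). CDKN1A, the p21 inhibitor, was at +1.06, -0.23 and +1.23.

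The measured histone genes did not follow as a group. Of 46 listed genes 18 were measured, among them HMGB2, which is not a histone. In all 3 pairs 6 were higher (33.3%) and 5 lower (27.8%), beside 15.7% and 16.4% of all genes tested. How the unmeasured histone genes stood cannot be read from these. HMGB2, a chromatin protein of dividing cells, was at +0.98, +0.56 and +0.69, and the variant histone gene H2AX at +0.81, +0.50 and +0.55. The replication-dependent genes H2AC8 (-0.33, -0.29, -0.53) and H4C8 (-0.11, -0.85, -1.02) were lower. The list median was -0.004 and stood at or above 0.0 under 6 of the alternatives, among them those without the VEGF-C pair and without the NRP-2 pair.

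**Figure D3:**
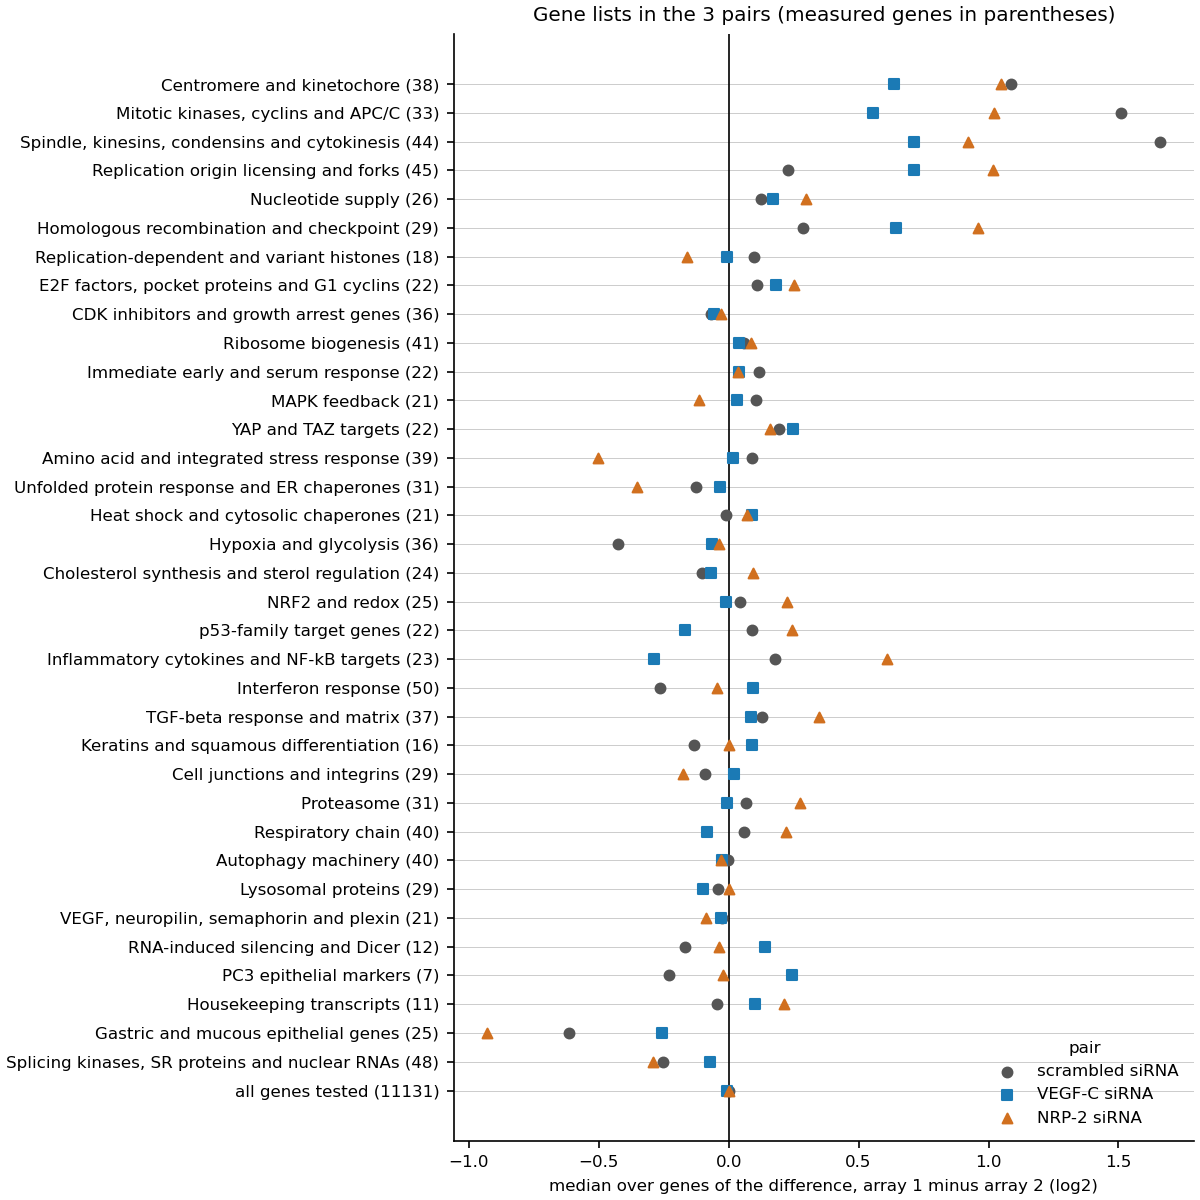
Median difference between array 1 and array 2, in log2 units, for every list with at least 5 measured genes, with 1 marker per siRNA pair and the number of measured genes in parentheses. The proliferation lists lie to the right of 0 in all 3 pairs, the list of gastric and mucous genes to the left (-0.62, -0.26 and -0.93). The inflammatory list lies on both sides of 0 (+0.18, -0.29 and +0.61).

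The 11 genes at least 2-fold lower in each pair were of several kinds, and some of them are known from mucus-secreting epithelium. TFF1, a trefoil peptide secreted with gastric mucus, stood at log2 10.37 and 11.67 on scrambled arrays 1 and 2, 9.67 and 11.10 on the VEGF-C arrays, and 9.84 and 11.56 on the NRP-2 arrays. All arrays numbered 1 lay below all arrays numbered 2, whatever the siRNA. The mean difference was -1.49 (SE 0.13, limma's adjusted p = 0.123). TFF2, a second trefoil peptide, was at 8.56 and 10.17, 8.28 and 9.51, and 8.10 and 10.08 in the same order (-1.61, SE 0.17). DHRS9, a retinol dehydrogenase, was at 8.06 and 9.38, 7.83 and 9.56, and 7.48 and 9.23 (-1.60, SE 0.14), and its 3 probe sets gave -1.53 to -1.71. CAPN8, a calpain of gastric surface cells, was at 5.50 and 7.10, 4.98 and 6.27, and 5.25 and 7.35 (-1.66, SE 0.18). In none of these 4 genes did the arrays numbered 1 and 2 overlap. They were picked for their pair differences, and the share of such genes over all genes tested was not counted.

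CDH26, an epithelial cadherin, differed by -1.19, -1.28 and -1.26, and VSIG1, a junction protein of the stomach, by -1.06, -1.15 and -1.24. LYZ, lysozyme, was at -0.90, -1.26 and -2.58, and CEACAM6, an adhesion protein of mucosal epithelium, at -0.50, -0.64 and -1.34. A list of gastric and mucous genes was written after these leaders had been seen, so its count describes them and is no independent evidence. Of 25 measured genes 16 were lower (64.0%) and 2 higher (8.0%) in all 3 pairs, beside 16.4% and 15.7% of all genes tested. An unadjusted limma p under 0.05 was reached by 12 and 1, beside 4.67% and 5.52% of all genes. The 2 genes higher in all 3 pairs were GKN2, a gastric secreted protein (+1.46, +0.42, +3.78), and MUC1, a membrane mucin (+0.15, +0.40, +0.27). The secreted mucin genes MUC5AC (-1.04, +0.28, -1.23) and MUC5B (-1.40, +0.82, -1.91) were lower in the scrambled and NRP-2 pairs and higher in the VEGF-C pair.

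**Figure D4:**
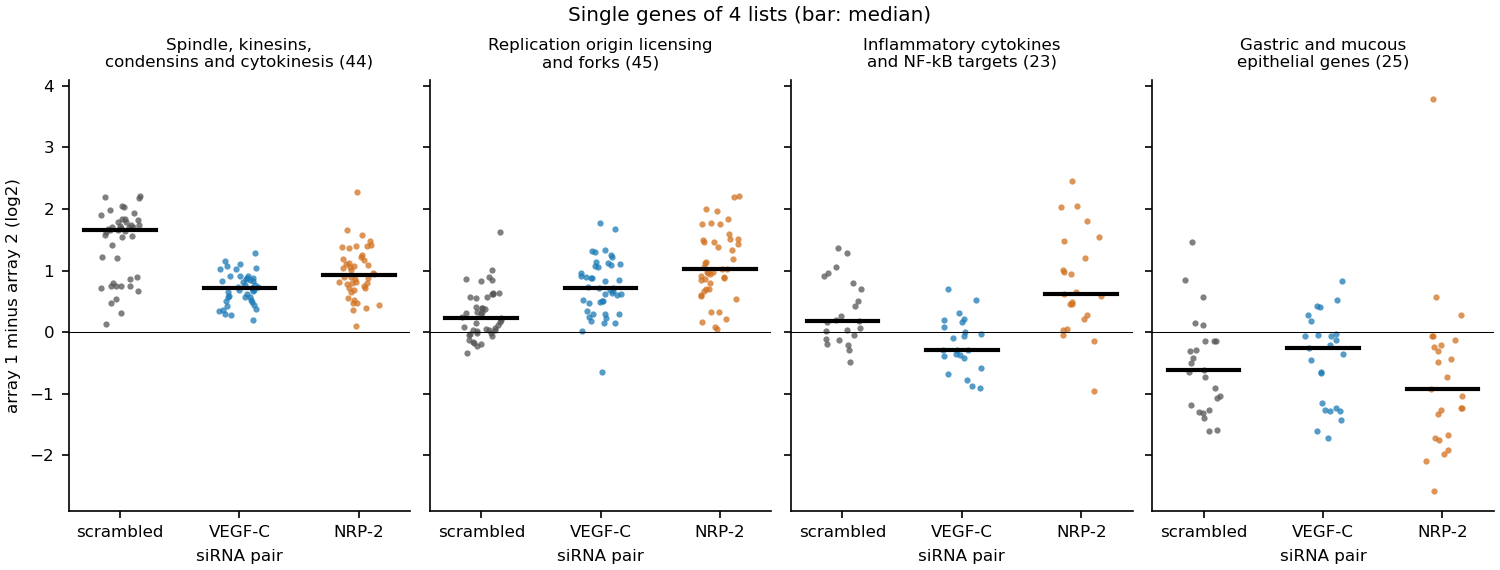
Difference between array 1 and array 2 (log2) for each measured gene of 4 lists, with a column of points per siRNA pair and a bar at the median. Spindle genes lie above 0 in every pair, replication genes lie nearest 0 in the scrambled pair (median 0.23), inflammatory genes lie mostly below 0 in the VEGF-C pair (median -0.29), and gastric and mucous genes spread widely below 0.

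Genes of other kinds were also lower on array 1 in all 3 pairs. PABPC1L, a poly(A)-binding protein, was at 8.10 and 9.25, 8.32 and 9.60, and 8.09 and 9.13 on the scrambled, VEGF-C and NRP-2 arrays (-1.16, SE 0.11). TAF1D, of the RNA polymerase I factor SL1, differed by -1.07, -0.91 and -0.83, and CCNL2, a cyclin of nuclear speckles, by -1.08, -0.86 and -0.84. MALAT1, a long non-coding RNA kept in the nucleus, was at 14.29 and 14.87, 13.50 and 14.38, and 13.76 and 14.55 (-0.75, SE 0.12). For MALAT1, 11 of 12 probe sets were lower on array 1 in all 3 pairs. A list of splicing kinases, SR proteins and nuclear RNAs was also written after the leaders had been seen. Of its 48 measured genes 27 were lower (56.25%) and 3 higher (6.25%) in all 3 pairs, beside 16.4% and 15.7% of all genes tested. The medians of this list were -0.25, -0.07 and -0.29. Within it the CLK kinase gene CLK1 was at -0.84, -0.26 and -1.07, whereas the SR protein gene SRSF1 was at +0.14, +0.18 and -0.28. GOLGA8A (-1.65, -1.63, -0.79) has a near-identical paralog, GOLGA8B, so which of them was measured is uncertain. Of the 1824 genes lower in all 3 pairs with a known gene type, 7.46% were not protein-coding, beside 2.69% of the 1748 higher in all 3 and 4.94% of all genes tested.

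The pairs did not move alike outside cell division. Over 11131 genes, the differences of the scrambled and NRP-2 pairs correlated with a Pearson r of 0.58, while the VEGF-C pair had an r of 0.11 with the scrambled pair and 0.12 with the NRP-2 pair. These are correlations across genes, which are not independent replicates, and they share array-wide processing. Spearman's rho was 0.48 for the scrambled and NRP-2 pairs and 0.02 for each pairing with the VEGF-C pair. Without the proliferation lists Pearson's r was 0.55 for the scrambled and NRP-2 pairs, 0.03 for the scrambled and VEGF-C pairs and 0.04 for the VEGF-C and NRP-2 pairs, with a rho of 0.47, -0.02 and -0.02. Within the 215 proliferation genes r was 0.51, 0.32 and 0.65 in that order, with a rho of 0.53, 0.37 and 0.63. The pairs also differed in spread. The median absolute difference was 0.14 in the scrambled pair, 0.18 in the VEGF-C pair and 0.23 in the NRP-2 pair, with 245, 297 and 571 genes at least 2-fold apart.

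**Figure D5:**
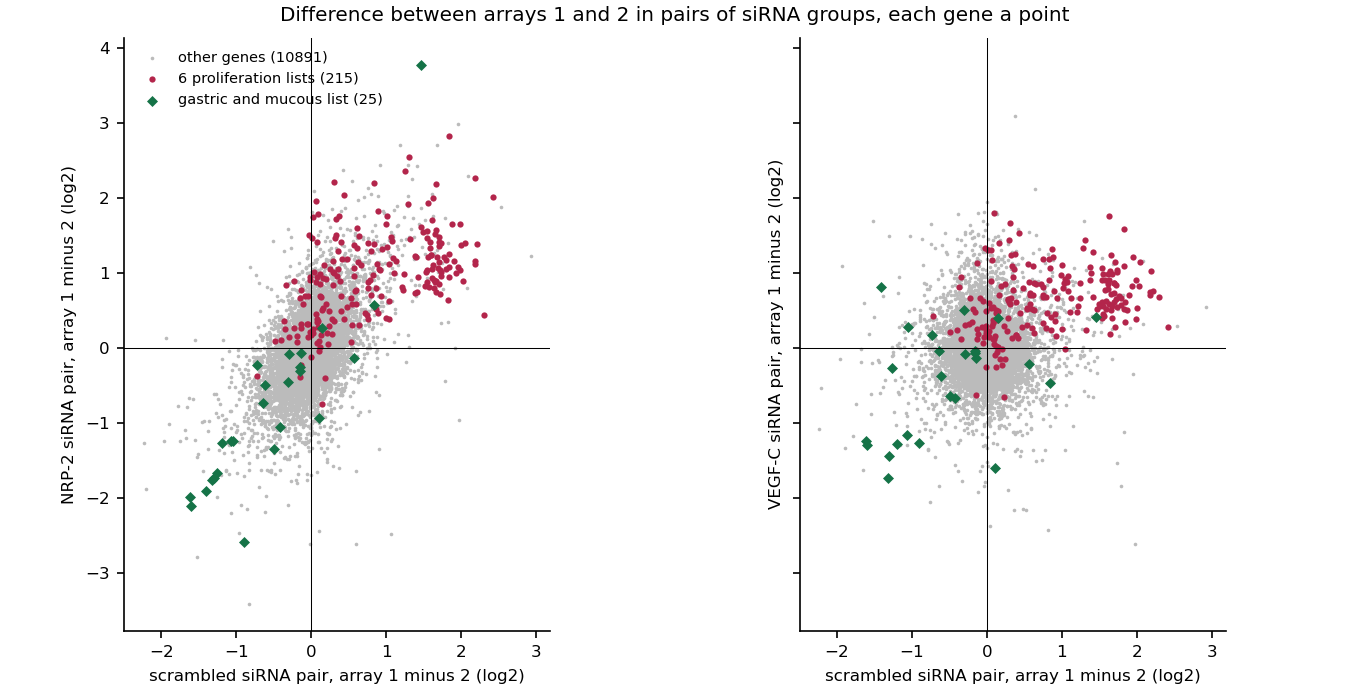
Difference between array 1 and array 2 (log2) of each gene in the scrambled pair against the NRP-2 pair (left) and the VEGF-C pair (right), with 215 proliferation genes and 25 gastric and mucous genes marked. The other genes stretch along the diagonal at the left (r = 0.58 over all genes) and form a round cloud at the right (r = 0.11), while proliferation genes sit mostly in the upper right of both.

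Leaving out the VEGF-C pair changed the calls. The 4 scrambled and NRP-2 arrays alone, with 1 residual degree of freedom and limma's pooled spread, gave 374 genes past an adjusted p of 0.05 in limma (3.36%), 248 higher (2.23%) and 126 lower (1.13%), with a lowest adjusted p of 0.0112. Without the scrambled pair or without the NRP-2 pair, 0 genes passed. The proliferation lists supplied 98 of the 248 higher genes, among them 33 spindle, 25 kinetochore, 24 mitotic kinase, 8 recombination and 5 replication genes. NCAPH (+2.23, SE 0.14) and CDC20, the APC/C activator (+1.42, SE 0.15), are examples. In the VEGF-C pair, which that fit left out, 97 of the 98 proliferation genes were higher on array 1, with a median of +0.73. Since 203 of all 215 proliferation genes were higher in that pair, this count is a description and no separate support.

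The remaining calls were read in the VEGF-C pair in the same way. Of the 150 other higher genes 85 (56.7%) were higher there, with a median of +0.13, and of the 126 lower genes 78 (61.9%) were lower there, by a median of 0.16. The same share over all 7332 genes with equal sign in the scrambled and NRP-2 pairs was 48.8%. Some of the 150 are division genes outside the lists, such as CDCA3, a mitotic regulator (+1.78, +0.71, +1.74), and PIMREG (+2.53, +0.30, +1.88). Others had the opposite sign in the VEGF-C pair, such as CST6, a cysteine protease inhibitor (+1.95, -0.34, +2.99), CPA4, a carboxypeptidase (+1.35, -0.64, +2.26), and TSPAN2, a tetraspanin (+1.41, -0.65, +2.43). Metallothioneins, which bind zinc and copper, were among them: MT1X was at +1.35, -0.19 and +1.74, MT2A at +1.09, -0.02 and +1.52, and MT1F, MT1G, MT1H and MT1HL1 also had a negative difference in the VEGF-C pair beside positive ones in the others. These are near-identical paralogs whose probe sets may share signal. All the genes named in this comparison were chosen after their values had been seen.

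Some inflammatory genes differed in the scrambled and NRP-2 pairs and stood near 0 in the VEGF-C pair. The list's median was +0.18 in the scrambled pair, -0.29 in the VEGF-C pair and +0.61 in the NRP-2 pair. Of 23 genes 6 were higher (26.1%) and 3 lower (13.0%) in all 3 pairs, beside 15.7% and 16.4% of all genes tested. IL6, an inflammatory cytokine, stood at log2 8.84 and 7.55 on the scrambled arrays, 10.15 and 10.24 on the VEGF-C arrays, and 9.91 and 7.87 on the NRP-2 arrays. Both VEGF-C arrays and NRP-2 array 1 were high, and the second scrambled and NRP-2 arrays were low. The neutrophil chemokine genes CXCL2 (+1.06, +0.08, +1.55) and CXCL3 (+0.97, -0.03, +1.81) had the same order. TNFRSF11B, a decoy receptor, was lower on array 1 in all pairs (-0.49, -0.77, -0.96). ANKRD1, a YAP target (+1.67, -0.14, +2.72), HMOX1, haem oxygenase 1 (+0.88, -0.08, +1.16), and DUSP1, a MAPK phosphatase (+0.66, -0.23, +1.15), were each close to 0 or slightly negative in the VEGF-C pair.

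Matrix and TGF-beta genes leaned higher on array 1, most in the NRP-2 pair. The list medians were +0.13, +0.09 and +0.35. In the scrambled and VEGF-C pairs 22 genes were higher and 15 lower in each, and in the NRP-2 pair 26 and 11. Of 37 measured 15 were higher (40.5%) and 4 lower (10.8%) in all 3 pairs, beside 15.7% and 16.4% of all genes tested. An unadjusted limma p under 0.05 was reached by 11 and 2, beside 5.52% and 4.67% of all genes. TGFBI, a secreted matrix protein, differed by +1.18, +0.88 and +2.71, SKIL, a feedback repressor of the pathway, by +0.84, +0.55 and +1.02, and TGFB2, a ligand, by +0.63, +0.49 and +1.14. SPARC, a collagen-binding protein, went the other way (-0.50, -1.28, -1.40), as did the collagenase gene MMP1 (-0.94, -0.37, -2.09). Of 22 YAP and TAZ targets 9 were higher in all 3 pairs (40.9%) and none lower, with AXL, a receptor kinase, at +0.55, +0.41 and +0.19.

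For the stress and metabolic lists, counts of genes lower in all 3 pairs are set beside the 16.4% of all genes tested. None of the 36 hypoxia and glycolysis genes was higher in all 3 pairs and 9 were lower (25.0%), with medians of -0.43 in the scrambled pair, -0.06 in the VEGF-C pair and -0.04 in the NRP-2 pair. P4HA1, a collagen hydroxylase, was at -0.91, -0.25 and -0.39 and PDK1, which restrains pyruvate entry into mitochondria, at -0.69, -0.36 and -0.31. A second PDK1 probe set past the filter on low values went the other way, with a mean difference of +0.35. Of 31 unfolded protein response genes 13 were lower (41.9%) and none higher, among them EIF2AK3, the kinase PERK (-0.53, -0.23, -0.58). The sterol-controlled genes INSIG1 (-0.70, -0.77, -0.43) and HMGCS1 (-0.32, -0.45, -0.56) were lower within a list of 24 with 3 lower (12.5%) and 1 higher, a share below that of all genes. The interferon list had a median of -0.27 in the scrambled pair, with 49 of 50 genes below 0, and stood at +0.09 and -0.05 in the VEGF-C and NRP-2 pairs, with 7 of 50 genes lower in all 3, a share below that of all genes. The amino acid response list had a median of -0.50 in the NRP-2 pair, with 36 of 39 genes below 0, beside +0.09 and +0.02, and 7 of 39 lower in all 3 pairs (17.9%, near that share). The sign of the mean-difference median turned for the interferon list without the scrambled pair and for the amino acid list without the NRP-2 pair.

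Autophagy, the process named in the title of the series, showed no common shift with the array number. Of 40 measured genes of the machinery 4 were higher and 6 lower in all 3 pairs, with medians of -0.004, -0.03 and -0.03. WIPI1, which binds phosphoinositides on forming autophagosomes, was at -0.06, -0.81 and -0.47, and the fusion factor EPG5 at +0.17, +0.16 and +0.37. Of 29 lysosomal genes 4 were higher (13.8%) and 7 lower (24.1%) in all 3 pairs. Among them MANBA, a mannosidase, was at -1.10, -0.43 and -1.29, and PPT1, a thioesterase, at +0.19, +0.71 and +0.55.

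Array number and siRNA are set side by side for the division genes. The spindle list's median difference was +1.13 between arrays 1 and 2, +1.16 between VEGF-C and scrambled siRNA, and +0.96 between NRP-2 and scrambled siRNA. Set across numbers, the median spindle gene on VEGF-C array 2 was 0.10 above scrambled array 1, and on NRP-2 array 2 it was 0.26 below it (-0.26). Set within numbers, VEGF-C array 1 was 0.76 above scrambled array 1 and VEGF-C array 2 was 1.64 above scrambled array 2. For replication genes the number gave +0.67, VEGF-C siRNA +0.41 and NRP-2 siRNA +0.76. These siRNA comparisons share the scrambled arrays.

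Over all genes the siRNA group took 58.7% of the sum of squares, the array number 21.1% and the rest 20.2%. Over the proliferation lists the shares were 45.6%, 46.5% and 7.93%, and over the other genes 60.0%, 18.6% and 21.4%. The siRNA group has 2 degrees of freedom and the number 1. Per degree of freedom, the sum of squares over the proliferation lists was 135 for siRNA group, 275 for array number and 23.5 for the rest, and over the other genes 1774, 1097 and 632. These values describe the arrays and are not a test. In limma's F test of siRNA group 0 genes (0.0%) passed an adjusted p of 0.05 with or without the array number as a block. Without adjustment, that test's p was under 0.05 for 2040 genes (18.3%) without the block and for 2541 (22.8%) with it.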

How the data were processed

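For each of the 6 arrays the authors deposited a log2 level of every probe set. The submitters' processing notes name Partek and GCRMA; the sources used here give no version of either. The deposited log2 values ran from 0.82 to 16.32. GCRMA equalises arrays, and nearness to the floor makes the folds of dim genes uncertain in size. The number of arrays limits precision. The platform annotation names 1 gene for 41091 of 54675 probe sets, several for 1801 and none for 11721; 62 more are controls. Genes were kept at a mean of at least log2 4 and represented by their brightest probe set, which left 11131.

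Arrays were grouped by siRNA and number from the sample titles. Limma 3.58.1 in R 4.3.3 was fitted with siRNA group as block and number as term (2 residual and 3.18 prior degrees of freedom), and tested on simulated data. The arrays were paired within siRNA group because the siRNA differs between pairs and not within them. Pearson correlations between the pair differences were 0.11, 0.58 and 0.12. Without the proliferation lists those with the VEGF-C pair were 0.03 and 0.04. These correlations come from the tested values and are no separate support for the pairing. Alternatives changed the block, filter, probe set, scaling, variance model and the pairs used. Members and gene lists were chosen with earlier results of these data known, and the gastric and splicing lists were written after values had been seen. Named were VEGFC and NRP2, the 15 genes in each direction with the largest smallest-pair difference, up to 10 with the smallest p, up to 6 per list with the smallest p, and 5 with opposed pairs; others are named where a count or example needed them, after their values were seen. Promoter sequences are RefSeq's (GRCh38.p14); TFF1, TFF2 and KNL1 had no entry.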

Additional observations from a re-analysis of the deposited data

Results flagged for a closer look

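A few results went in opposite directions in different siRNA pairs, and in none of these cases was the difference between pairs tested. The inflammatory list had medians of +0.18, -0.29 and +0.61 in the scrambled, VEGF-C and NRP-2 pairs, 0.899 apart. The 7 genes of the PC3 marker list, which includes CD44 and VIM, had medians of -0.23, +0.24 and -0.02, 0.473 apart, with CDH1 at -0.23, +0.58 and -0.37. The genes that follow are dim on some arrays, where values near the floor make the size of a difference uncertain, so their order by size is not read. RAB39B, a vesicle GTPase with levels of log2 2.88 to 5.88, differed by +1.97, -2.61 and -0.95, a range of 4.58, and its second probe set gave +1.68, -2.66 and -0.22. DOCK8, an exchange factor for CDC42 with levels of 3.96 to 5.84, was at +1.78, -1.83 and -0.43 (range 3.61), and CCL26, an eosinophil chemokine with levels of 2.95 to 6.17, at +1.73, -1.52 and +0.34 (range 3.26). ZBTB20, a zinc finger repressor with levels of 5.24 to 7.11, was at -1.52, +1.70 and -1.45 (range 3.22), and none of its 12 probe sets had the same sign in all 3 pairs. IFT70A, of intraflagellar transport, with levels of 3.32 to 5.63, was at -1.30, +1.50 and -0.61 (range 2.80). In all, 20 genes were opposed by at least 2-fold on both sides.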

How the results depend on the processing

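No gene passed an adjusted limma p of 0.05 under 10 of the 11 alternatives, with lowest adjusted p-values from 0.0763 (mean of at least log2 6) to 0.678 (no block). The number of genes called ran from 0 to 374 when each pair was left out in turn, the latter without the VEGF-C pair. Genes with an unadjusted p under 0.05 numbered 459 with no replicate block and from 613 (without the NRP-2 pair) through 743 (without the scrambled pair) to 2038 (without the VEGF-C pair), against 1134. Genes of equal sign in every pair left numbered 5426 to 7332, since fewer pairs have to match. The nucleotide supply median ran from 0.0777 (without the NRP-2 pair) to 0.266, the latter without the scrambled pair. The siRNA F test with the replicate block gave 2541 genes with an unadjusted p under 0.05 in place of 2040, and 0 called either way. Among 235 named genes, 13 changed sign under some alternative, none of them among the 35 named by their pair differences or p; a change of scaling alone turned NRP2 and CDH1. Of 304 list medians under alternatives 20 changed sign or came to 0.0, none in the proliferation lists. For dim genes the nearness to the floor limits what can be measured.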
